A study of Arabidopsis thaliana with 8 samples.

Results

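The cyclins of classes A, B and D and the cyclin-dependent kinases (CDKs) of the Arabidopsis thaliana cell cycle were followed in endosperm whose mother, or both parents, lacked a functional NRPD1 gene for RNA polymerase IV. The 31 genes were chosen by their annotated family: 7 A-type cyclins, 9 B-type cyclins, 10 D-type cyclins and 5 kinases (CDKA-1 and 4 B-type CDKs). They are 31 of the 37329 genes in each deposited expression table. All 31 were found by locus identifier in the tables, which hold no gene names. Names are from RefSeq and are written with a hyphen, as for CYCB1-1, which RefSeq spells CYCB1;1.

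Endosperm, the nutritive tissue of the seed that forms beside the embryo after fertilization, was dissected by hand from F1 seeds at 7 days after pollination and its polyadenylated RNA was sequenced. Endosperm of seeds from several siliques was pooled for each biological replicate, and the replicates came from crosses with different individual plants as parents. The mat nrpd1+/- endosperm (3 samples) came from a Ler nrpd1-/- mother and a Col-0 father, so the maternal NRPD1 alleles were mutant and the paternal allele was functional. The nrpd1-/- endosperm (3 samples) came from a Ler nrpd1-/- mother and a Col-0 nrpd1-/- father. WT endosperm (2 samples) came from a Ler mother and a Col-0 father, and all groups are therefore Ler by Col-0 hybrids of the same cross direction. NRPD1 encodes the largest subunit of RNA polymerase IV, which makes the precursors of most small interfering RNAs in plants. The mutant allele was an insertion (nrpd1a-4) that arose in Col-0 and had been crossed repeatedly into Ler, which left Col-0 sequence on the maternal side in 12 deposited regions. Of the 31 genes, 7 overlap these regions: CYCA2-4, CYCB2-4, CYCD1-1, CYCD4-2, CYCD7-1, CDKB1-2 and CDKB2-1. In both mutants their maternal alleles may carry Col-0 sequence, so genotype and allele origin cannot be told apart for these genes.

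In plants, D-type cyclins respond to growth signals and, bound to CDKA-1, phosphorylate the retinoblastoma-related protein so that cells enter S phase. A-type cyclins act from S phase to mitosis, while B-type cyclins and the plant-specific B-type CDKs act around the G2-to-M transition and in mitosis. Many B-type cyclin promoters carry the mitosis-specific activator (MSA) element, which is bound by MYB3R transcription factors and has the core letters AACGG. Endosperm first divides its nuclei without making walls, then forms cells, and later leaves the mitotic cycle.

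The tables hold 1 FPKM value (fragments per kilobase of transcript, scaled to the total of mapped fragments) per genotype, pooled over libraries, so no difference below has a replicate check, a spread or a p-value. Each table pairs a mutant with its own WT column. A difference is given as a log2 fold, log2((mutant FPKM + 1)/(WT FPKM + 1)), which understates the change of low genes. A gene was compared if it had at least 1 FPKM in either genotype, and was counted as lower or higher from 2-fold on that scale. NRPD1 itself (chromosome 1, 23354685 to 23362589, TAIR10) had 2.08 FPKM in mat nrpd1+/-, against 2.28 FPKM in WT, and 2.08 FPKM in nrpd1-/-, against 4.34 FPKM in WT. Reads on either side of an insertion still count towards such a value, so it does not check the genotype.

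The 2 WT columns were not the same. Over 16025 genes with at least 1 FPKM in both, their log2 ratio had an SD of 1.19. After centring on the median of all genes, 6 of the 31 genes were at least 2-fold higher in the WT column of the nrpd1-/- table than in that of the mat nrpd1+/- table, where 12.4% of 18476 genes were, and 1 was at least 2-fold lower, where 18.2% were. Which WT libraries entered each table was not given in the sources used here. Read length also differed between the genotypes, so genotype and sequencing run cannot be told apart. Each mutant was therefore set against both WT columns, and values against the WT column of the other table were centred on the median of all genes because the tables had been scaled separately.

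The B-type cyclins and B-type CDKs were lower in both mutants. The summed level of the 9 B-type cyclins was 56.7 FPKM in mat nrpd1+/-, against 162 FPKM in WT (34.9% of WT), and 29.6 FPKM in nrpd1-/-, against 146 FPKM in WT (20.3% of WT). The 4 B-type CDKs summed to 40.7 FPKM in mat nrpd1+/-, against 105 FPKM in WT (38.8%), and to 27.4 FPKM in nrpd1-/-, against 115 FPKM in WT (23.9%). The 10 D-type cyclins together stood much closer to WT, at 67.2 FPKM in mat nrpd1+/-, against 91.9 FPKM in WT (73.1%), and at 56.1 FPKM in nrpd1-/-, against 78.0 FPKM in WT (72.0%). The A-type cyclins summed to 17.5 FPKM in mat nrpd1+/-, against 24.6 FPKM in WT (71.1%), and to 16.0 FPKM in nrpd1-/-, against 44.0 FPKM in WT (36.5%). In RNA from whole dissected tissue, fewer dividing cells and less of these transcripts per cell cannot be told apart.

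Counted gene by gene, 11 of the 31 were at least 2-fold lower in mat nrpd1+/- than in WT, beside 14.3% of the 18761 genes compared, and 1 was at least 2-fold higher, beside 11.1%. In nrpd1-/-, 19 of the 31 were at least 2-fold lower than in WT, beside 7.38% of 18051 genes, and none was at least 2-fold higher, beside 9.48%. In mat nrpd1+/-, 30 of the 31 genes reached 1 FPKM in either genotype, 5 of them in 1 genotype only, and in nrpd1-/- 29 did, 4 of them in 1 genotype only. The median log2 fold of the genes that reached 1 FPKM was −0.75 in mat nrpd1+/-, where the median of all genes was −0.07, and −1.30 in nrpd1-/-, where it was 0.00. Of the 24 genes outside the Col-0 regions, 8 were at least 2-fold lower in mat nrpd1+/- and 15 in nrpd1-/-.

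**Figure D1:**
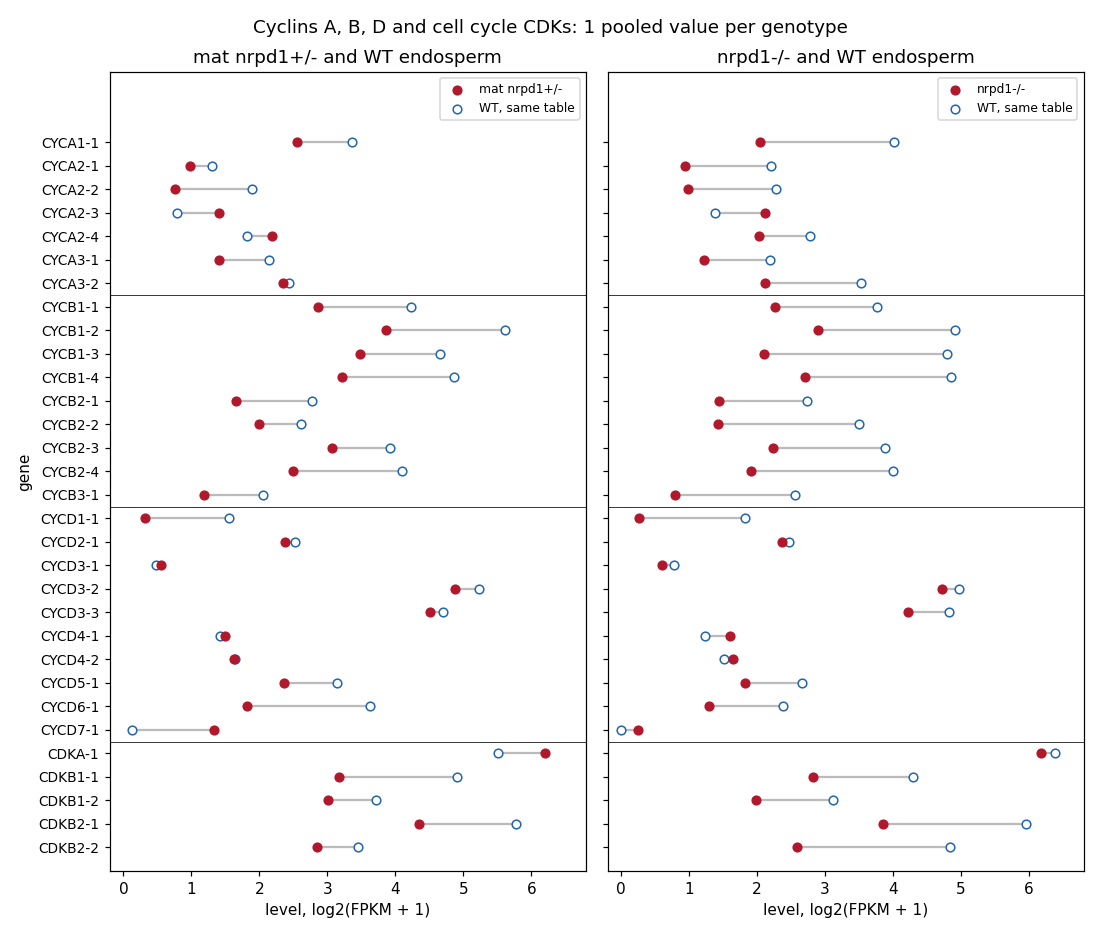
Level of each of the 31 genes as log2(FPKM + 1), with mat nrpd1+/- and WT on the left and nrpd1-/- and WT on the right. Filled points are the mutant, open points are the WT column of the same table, each point is 1 pooled value with no error bar, and horizontal lines divide A-type, B-type and D-type cyclins and CDKs. All 9 B-type cyclins and all 4 B-type CDKs have the mutant to the left of WT in both panels, while CYCD3-2, CYCD3-3 and CYCD2-1 have the points close together.

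Because the B-type cyclins lead these differences, their upstream sequences are shown first. The 250 bases before each gene start were read from the RefSeq annotation and sequence of TAIR10.1 (Col-0), and 30 of the 31 starts were the same as in the deposited tables, which use TAIR10. The letters AACGG were searched on both strands, so that the reverse complement CCGTT also counted. The core occurred at least 1 time before 20.6% of 27443 protein-coding genes on the 5 chromosomes, and at least 3 times before 0.736% of them. Of the 9 B-type cyclins, 6 had it at least 3 times: CYCB1-1, CYCB1-2, CYCB1-3, CYCB2-1, CYCB2-2 and CYCB2-3. It was found 2 times each before CYCA1-1, CYCA2-1 and CYCA3-1 and 1 time each before CYCD3-1 and CDKB2-2, and the other 20 genes had none in this window. With the first 50 transcribed bases added, 8 of the 9 B-type cyclins had it at least 1 time, beside 24.7% of all genes, and CYCB2-4 remained without one. A match of letters is a description and not a shown binding site, and the endosperm also carried Ler alleles, whose sequence was not read. The B-type cyclins without the core in the 250 bases were lower as well. In mat nrpd1+/- the log2 fold was −1.65 for CYCB1-4, −1.59 for CYCB2-4 and −0.88 for CYCB3-1. In nrpd1-/- these were −2.15, −2.09 and −1.78. CYCB1-2, with 4, was at −1.76 and −2.02, and CYCB2-2, with 3, at −0.62 and −2.07. A link between the core and the levels was not tested.

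The 3 sequences below run 5′ to 3′ and end at the base before the gene start, with AACGG or CCGTT in capitals. CYCB1-2, CYCB1-3 and CYCB2-2 are shown for the repeated core.
CYCB1-2 (chr5:1861704-1861953, minus strand): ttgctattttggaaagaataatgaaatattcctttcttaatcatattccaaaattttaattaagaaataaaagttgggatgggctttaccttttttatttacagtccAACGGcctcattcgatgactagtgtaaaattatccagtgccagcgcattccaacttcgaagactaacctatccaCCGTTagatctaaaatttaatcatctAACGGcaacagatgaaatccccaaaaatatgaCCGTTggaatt
CYCB1-3 (chr3:3627274-3627523, minus strand): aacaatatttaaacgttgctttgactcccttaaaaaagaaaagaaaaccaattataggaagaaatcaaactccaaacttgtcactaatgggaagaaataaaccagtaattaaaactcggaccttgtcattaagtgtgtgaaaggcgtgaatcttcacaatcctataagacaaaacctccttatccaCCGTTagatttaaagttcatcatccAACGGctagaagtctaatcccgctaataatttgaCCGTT
CYCB2-2 (chr4:16901346-16901595, plus strand): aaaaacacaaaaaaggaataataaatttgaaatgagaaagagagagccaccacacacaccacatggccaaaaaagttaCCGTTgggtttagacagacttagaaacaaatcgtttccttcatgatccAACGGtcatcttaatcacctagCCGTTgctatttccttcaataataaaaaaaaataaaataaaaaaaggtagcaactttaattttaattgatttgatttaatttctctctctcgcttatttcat

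CYCB1 cyclins are the mitotic cyclins whose transcripts accumulate from G2 to mitosis. All 4 were at least 2-fold lower in each mutant, with a median log2 fold of −1.51 in mat nrpd1+/- and −2.08 in nrpd1-/-. In mat nrpd1+/- CYCB1-1 stayed just short of 2-fold against the other WT column (−0.997), and with both genotypes rescaled to the same summed FPKM of nuclear genes CYCB1-1 (−0.88) and CYCB1-3 (−0.65) were within 2-fold of WT. CYCB1-1 (AT4G37490), the usual marker of dividing plant cells and a gene also used in DNA repair, had 6.29 FPKM in mat nrpd1+/-, against 17.8 in WT (log2 fold −1.37), and 3.82 FPKM in nrpd1-/-, against 12.6 in WT (−1.50). CYCB1-2 (AT5G06150), whose upstream sequence held the core 4 times, was the most abundant B-type cyclin in all 4 columns, with 13.5 FPKM in mat nrpd1+/-, against 48.1 in WT (−1.76), and 6.42 FPKM in nrpd1-/-, against 29.0 in WT (−2.02). The mutants were the lower in both tables although the WT columns themselves differed. CYCB1-3 (AT3G11520) had 10.2 FPKM in mat nrpd1+/-, against 24.1 in WT (−1.17), and 3.31 FPKM in nrpd1-/-, against 26.8 in WT (−2.69), the lowest log2 fold of the 31 genes in either comparison. CYCB1-4 (AT2G26760) had 8.26 FPKM in mat nrpd1+/-, against 28.0 in WT (−1.65), and 5.50 FPKM in nrpd1-/-, against 27.8 in WT (−2.15). For CYCB1-3 and CYCB1-4 the WT columns were alike and the mutants differed.

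CYCB2 cyclins are a second family of mitotic cyclins, and their median log2 fold was −0.99 in mat nrpd1+/- and −1.86 in nrpd1-/-. CYCB2-1 (AT2G17620) had 2.16 FPKM in mat nrpd1+/-, against 5.85 in WT (−1.12), and 1.70 FPKM in nrpd1-/-, against 5.63 in WT (−1.30). CYCB2-4 (AT1G76310), which lies in a Col-0 region, had 4.66 FPKM in mat nrpd1+/-, against 16.0 in WT (−1.59), and 2.76 FPKM in nrpd1-/-, against 15.0 in WT (−2.09). Against the WT of their own tables, CYCB2-1 and CYCB2-4 passed the 2-fold limit in both mutants, and CYCB2-2 and CYCB2-3 in nrpd1-/- but not in mat nrpd1+/-. With both genotypes rescaled to the same summed FPKM of nuclear genes, CYCB2-1 was at −0.71 in mat nrpd1+/-, within 2-fold of WT. CYCB2-2 (AT4G35620) had 2.99 FPKM in mat nrpd1+/-, against 5.14 in WT (−0.62), and 1.69 FPKM in nrpd1-/-, against 10.3 in WT (−2.07). CYCB2-3 (AT1G20610) had 7.34 FPKM in mat nrpd1+/-, against 14.2 in WT (−0.87), and 3.69 FPKM in nrpd1-/-, against 13.8 in WT (−1.65). For CYCB2-2 the WT value of the nrpd1-/- table was itself the higher by 1.03 on the centred log2 scale. CYCB3-1 (AT1G16330), the single member of the third family, had 1.26 FPKM in mat nrpd1+/-, against 3.17 in WT (−0.88), and 0.722 FPKM in nrpd1-/-, against 4.90 in WT (−1.78). In the nrpd1-/- table it reached 1 FPKM in WT only.

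B-type CDKs exist only in plants and, unlike CDKA, are themselves transcribed periodically. CDKB1-1 (AT3G54180), which pairs with A2-type cyclins and holds cells in the mitotic cycle, had 8.01 FPKM in mat nrpd1+/-, against 29.1 in WT (−1.74), and 6.07 FPKM in nrpd1-/-, against 18.5 in WT (−1.46). Its close relative CDKB1-2 (AT2G38620) had 7.04 FPKM in mat nrpd1+/-, against 12.1 in WT (−0.71), and 2.94 FPKM in nrpd1-/-, against 7.65 in WT (−1.13). The WT column of the nrpd1-/- table was the lower of the WT columns for both. CDKB2 kinases peak later, around mitosis, and are needed in the shoot meristem. CDKB2-1 (AT1G76540) had 19.4 FPKM in mat nrpd1+/-, against 53.7 in WT (−1.42), where it was the most abundant of the 31 genes, and 13.4 FPKM in nrpd1-/-, against 60.7 in WT (−2.10). With the equal nuclear sum CDKB2-1 was at −0.89 in mat nrpd1+/-, within 2-fold of WT. CDKB2-2 (AT1G20930) had 6.22 FPKM in mat nrpd1+/-, against 9.92 in WT (−0.60), and 4.99 FPKM in nrpd1-/-, against 27.7 in WT (−2.26). The mutant levels of CDKB2-2 were close to each other, and the WT columns were 1.54 apart on the centred log2 scale, the widest gap among the 31 genes. Gene models of all 4 B-type CDKs share their deposited position with a neighbouring gene, and the sources used here do not say that reads were counted by strand.

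CDKA-1 (AT3G48750), the kinase that acts through the whole cycle, did not share this pattern. It had 72.5 FPKM in mat nrpd1+/-, against 44.7 in WT (0.69), and 71.2 FPKM in nrpd1-/-, against 82.2 in WT (−0.20). With the equal nuclear sum it was at 1.24 in mat nrpd1+/-, past 2-fold. On that scale the median of all genes was 0.43, and 22.6% of them were at least 2-fold higher. The sign for CDKA-1 turned with the WT column, since against the WT column of the other table the centred values were −0.27 in mat nrpd1+/- and 0.83 in nrpd1-/-. In FPKM, which divides by transcript length, CDKA-1 stood at 1.78 times the summed B-type CDKs in mat nrpd1+/-, against 0.427 times in WT, and at 2.60 times in nrpd1-/-, against 0.718 times in WT. CDKA-1, CYCD3-2 and CYCD3-3 were the 3 most abundant of the 31 genes in each mutant.

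**Figure D2:**
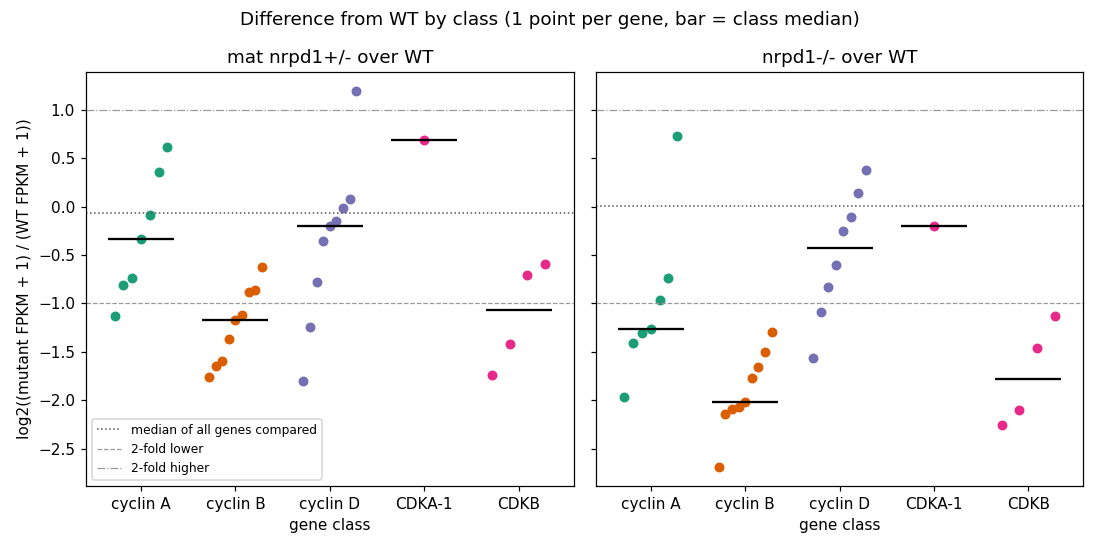
Log2 fold of mutant over WT on the FPKM + 1 scale, with mat nrpd1+/- on the left and nrpd1-/- on the right. Each point is 1 gene with at least 1 FPKM in either genotype, black bars are class medians, the dotted line is the median of all genes compared and the dashed lines mark 2-fold. The B-type cyclins lie between −1.76 and −0.62 in mat nrpd1+/- and between −2.69 and −1.30 in nrpd1-/-, below the all-gene medians of −0.07 and 0.00.

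The A-type cyclins were more mixed, with a median log2 fold of −0.33 in mat nrpd1+/- and −1.27 in nrpd1-/-. CYCA1-1 (AT1G44110), a cyclin of mitotic cells, had 4.88 FPKM in mat nrpd1+/-, against 9.30 in WT (−0.81), and 3.10 FPKM in nrpd1-/-, against 15.1 in WT (−1.97). The A2-type cyclins act with CDKB1-1 and delay the switch to endoreduplication, in which DNA is copied without division. CYCA2-1 (AT5G25380) had 0.964 FPKM in mat nrpd1+/-, against 1.47 in WT (−0.33), and 0.907 FPKM in nrpd1-/-, against 3.59 in WT (−1.27). In both tables CYCA2-1 reached 1 FPKM in WT only. CYCA2-2 (AT5G11300) had 0.691 FPKM in mat nrpd1+/-, against 2.70 in WT (−1.13), and 0.973 FPKM in nrpd1-/-, against 3.86 in WT (−1.30). It was the A-type cyclin past 2-fold in mat nrpd1+/-, it reached 1 FPKM in WT only, and it lay within 2-fold in mat nrpd1+/- with the equal nuclear sum (−0.88) or 5 FPKM added (−0.44). CYCA2-3 (AT1G15570) was the higher in both mutants against the WT of the same table. It had 1.65 FPKM in mat nrpd1+/-, against 0.734 in WT (0.61), and 3.32 FPKM in nrpd1-/-, against 1.60 in WT (0.73). In the mat nrpd1+/- table it reached 1 FPKM in the mutant only. Against the other WT column it was at −0.06 in mat nrpd1+/- and at 1.49 in nrpd1-/-. CYCA2-4 (AT1G80370), in a Col-0 region, had 3.53 FPKM in mat nrpd1+/-, against 2.54 in WT (0.36), and 3.09 FPKM in nrpd1-/-, against 5.83 in WT (−0.74).

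The A3-type cyclins act around S phase. CYCA3-1 (AT5G43080) had 1.66 FPKM in mat nrpd1+/-, against 3.42 in WT (−0.73), and 1.33 FPKM in nrpd1-/-, against 3.54 in WT (−0.96). CYCA3-2 (AT1G47210) had 4.10 FPKM in mat nrpd1+/-, against 4.40 in WT (−0.08), and 3.33 FPKM in nrpd1-/-, against 10.5 in WT (−1.41). For the A-type class as a whole the WT column decided the value. Against the WT column of the other table its median was −1.26 in mat nrpd1+/- and −0.20 in nrpd1-/-, the reverse order of the medians against each table's own WT, and the WT values of all 7 were higher in the nrpd1-/- table, by 0.19 to 1.24 on the centred log2 scale.

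The D-type cyclins split into an abundant pair near WT and a few genes that were lower, with a median log2 fold of −0.20 in mat nrpd1+/- and −0.42 in nrpd1-/-. CYCD3-2 and CYCD3-3, which respond to cytokinin and favour division over endoreduplication in leaves, were the most abundant cyclins in both mutants. CYCD3-2 (AT5G67260) had 28.4 FPKM in mat nrpd1+/-, against 36.6 in WT (−0.35), and 25.4 FPKM in nrpd1-/-, against 30.3 in WT (−0.25). CYCD3-3 (AT3G50070) had 21.7 FPKM in mat nrpd1+/-, against 25.1 in WT (−0.20), and 17.6 FPKM in nrpd1-/-, against 27.2 in WT (−0.60). With both genotypes rescaled to the same summed FPKM of nuclear genes, the signs of both in mat nrpd1+/- turned, to 0.19 for CYCD3-2 and 0.34 for CYCD3-3, while the median of all genes was 0.43 in place of −0.07, so they stayed below that median. The CYCD3 cyclins together stood at 0.894 times the summed B-type cyclins in mat nrpd1+/-, against 0.383 times in WT, and at 1.47 times in nrpd1-/-, against 0.399 times in WT.

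CYCD2-1 (AT2G22490), which responds to sugar, had 4.17 FPKM in mat nrpd1+/-, against 4.75 in WT (−0.15), and 4.13 FPKM in nrpd1-/-, against 4.52 in WT (−0.10). CYCD4-1 (AT5G65420), which acts in roots and at germination, had 1.82 FPKM in mat nrpd1+/-, against 1.67 in WT (0.08), and 2.03 FPKM in nrpd1-/-, against 1.34 in WT (0.37). CYCD4-2 (AT5G10440), in a Col-0 region, had 2.09 FPKM in mat nrpd1+/-, against 2.12 in WT (−0.01), and 2.14 FPKM in nrpd1-/-, against 1.84 in WT (0.14). These 3 genes lay within 2-fold of WT in each of the 4 pairings of mutant and WT column.

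CYCD5-1 (AT4G37630) had 4.16 FPKM in mat nrpd1+/-, against 7.83 in WT (−0.78), and 2.54 FPKM in nrpd1-/-, against 5.30 in WT (−0.83). CYCD6-1 (AT4G03270), known from the formative divisions of the root ground tissue, had 2.53 FPKM in mat nrpd1+/-, against 11.3 in WT (−1.81), and 1.44 FPKM in nrpd1-/-, against 4.21 in WT (−1.09). Its WT values were 1.10 apart on the centred log2 scale, with the nrpd1-/- table the lower. CYCD1-1 (AT1G70210), in a Col-0 region and sharing its position with a neighbouring gene, had 0.241 FPKM in mat nrpd1+/-, against 1.95 in WT (−1.25), and 0.195 FPKM in nrpd1-/-, against 2.52 in WT (−1.56). CYCD1-1 reached 1 FPKM in WT only, so it could be compared only through the genotype in which it was high. CYCD7-1 (AT5G02110), known from the last division of the stomatal lineage and also in a Col-0 region, had 1.51 FPKM in mat nrpd1+/-, against 0.0955 in WT (1.20), and was the gene of the 31 counted as at least 2-fold higher. It passed the filter only through the genotype in which it was high. In the other table CYCD7-1 had 0.192 FPKM in nrpd1-/- and was listed at 0 in WT. CYCD3-1 (AT4G34160) stayed under 1 FPKM in all 4 columns, with 0.463 FPKM in mat nrpd1+/-, against 0.395 in WT, and 0.513 FPKM in nrpd1-/-, against 0.708 in WT.

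Each mutant was then compared with the WT column of the other table. Against it, 15 of the 31 genes were at least 2-fold lower in mat nrpd1+/-, beside 7.67% of 18298 genes, and 1 was at least 2-fold higher, beside 12.4%. In nrpd1-/-, 16 were at least 2-fold lower, beside 18.7% of 18815 genes, and 1, CYCA2-3, was at least 2-fold higher, beside 16.4%. Of the 9 B-type cyclins, 7 were at least 2-fold lower in mat nrpd1+/- and 9 in nrpd1-/-, with medians of −1.41 and −1.80. The comparisons may share WT libraries, so a gene that was low in several pairings was not measured independently in each.

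The 2 mutants were also set against each other, over the WT column of the mat nrpd1+/- table, whose value cancels between them. All 9 B-type cyclins were lower in nrpd1-/- than in mat nrpd1+/-, with medians over that WT of −1.80 in nrpd1-/- and −1.17 in mat nrpd1+/-, while 41.6% of 18477 genes were lower in nrpd1-/-. Of the 5 CDKs 4 were lower in nrpd1-/- than in mat nrpd1+/-, of the 7 A-type cyclins 3, and of the 8 D-type cyclins compared 3. The tables were scaled separately, and this order rests on centring one of them. Over the WT column of the nrpd1-/- table, where the other table was centred, all 9 B-type cyclins and 4 of the 5 CDKs were lower in nrpd1-/-. Of the 7 A-type cyclins 4 were, and of the 8 D-type cyclins 4, beside 48.6% of 17775 genes. The WT value cancels here too, so the same mutant values are compared with another centring. It is not a second measurement of the order. Each B-type cyclin and B-type CDK also stayed below WT in both mutants under every alternative in filter, added FPKM and scaling that was run. No replicate spread was at hand to test these differences between the mutants.

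**Figure D3:**
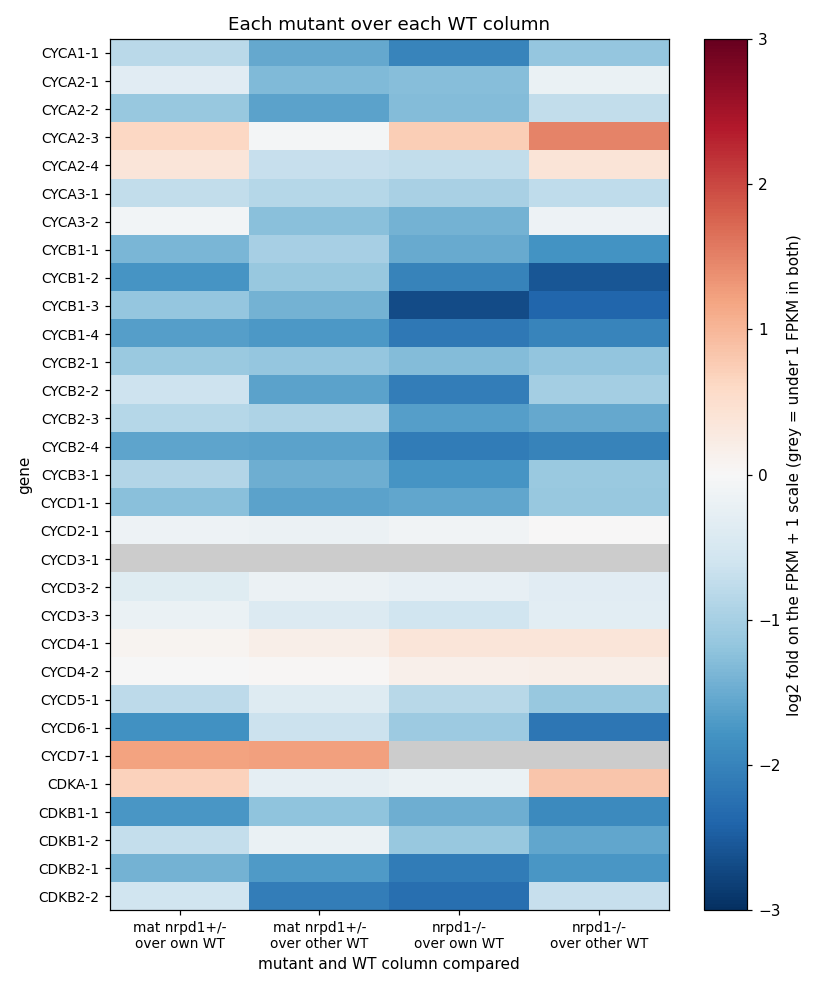
Log2 fold on the FPKM + 1 scale of the 31 genes for each mutant over the WT column of its own table and over that of the other table, the values over the other WT being centred on the median of all genes. Blue is lower and red is higher in the mutant, and grey marks genes under 1 FPKM in both columns. All B-type cyclins and B-type CDKs are blue in all 4 columns, while CDKA-1 and CYCA2-4 are blue or red depending on the WT column.

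Other genes of the cell cycle machinery were taken from lists of their partners and regulators. Among 12 genes of the mitotic apparatus (cytokinesis, spindle and checkpoint proteins), 4 were at least 2-fold lower in mat nrpd1+/- with a list median of −0.79, and 10 were in nrpd1-/- with a list median of −1.35, and none was at least 2-fold higher in either. Over all genes 14.3% were lower in mat nrpd1+/- and 7.38% in nrpd1-/-. Against the other WT column 9 of the 12 were at least 2-fold lower in mat nrpd1+/- (7.67% of all genes) and 7 in nrpd1-/- (18.7%). The order of the mutants thus turned, and the order of the shares of all genes turned as well. MAD2, a spindle checkpoint protein, had 15.8 FPKM in mat nrpd1+/-, against 66.0 in WT, and 11.3 FPKM in nrpd1-/-, against 44.6 in WT. EDE1, a microtubule-associated protein needed for endosperm development, lies in a Col-0 region and had 1.78 FPKM in mat nrpd1+/-, against 7.20 in WT, and 1.10 FPKM in nrpd1-/-, against 4.39 in WT. BUBR1, another checkpoint protein, had 2.55 FPKM in mat nrpd1+/-, against 6.63 in WT, and 1.39 FPKM in nrpd1-/-, against 6.59 in WT. These 3 are named because they were lower in both tables by the widest margin in this list.

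Among 8 partners and activating kinases of CDKs, 3 were at least 2-fold lower in mat nrpd1+/- (all genes 14.3%) and 2 in nrpd1-/- (7.38%). Against the other WT column 2 and 3 were (all genes 7.67% and 18.7%). CKS2, a docking subunit of CDKs, had 24.3 FPKM in mat nrpd1+/-, against 122 in WT, and 13.2 FPKM in nrpd1-/-, against 51.5 in WT. WEE1, a kinase that inhibits CDKs when DNA is damaged, had 3.19 FPKM in mat nrpd1+/-, against 11.7 in WT, and 2.25 FPKM in nrpd1-/-, against 7.94 in WT. The list thus held a subunit that works with CDKs and an inhibitor of them, both lower.

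Among 13 CDK inhibitors, 5 were at least 2-fold lower and 1 higher in mat nrpd1+/-, and 1 was lower and 4 higher in nrpd1-/-, beside 14.3% lower and 11.1% higher of all genes in mat nrpd1+/- and 7.38% and 9.48% in nrpd1-/-. The split turned round with the WT column, with 0 lower and 3 higher in mat nrpd1+/- and 5 lower and 2 higher in nrpd1-/- against the other one. Of all genes, 7.67% were lower and 12.4% higher in mat nrpd1+/- against that column, and 18.7% and 16.4% in nrpd1-/-. SIM, an inhibitor that drives endoreduplication, had 121 FPKM in mat nrpd1+/-, against 23.6 in WT, and 145 FPKM in nrpd1-/-, against 26.4 in WT. SMR4, of the same family, had 1.30 FPKM in mat nrpd1+/-, against 27.6 in WT, and 0.566 FPKM in nrpd1-/-, against 3.18 in WT. Both SIM and SMR4 lie in Col-0 regions.

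Of the 9 genes for the retinoblastoma-related protein, E2F and DP factors, 1 was at least 2-fold lower in mat nrpd1+/- and 2 were in nrpd1-/-, beside 14.3% and 7.38% of all genes. Against the other WT column 2 and 1 were lower, beside 7.67% and 18.7% of all genes. DEL1, an atypical E2F factor that delays endoreduplication, had 2.23 FPKM in mat nrpd1+/-, against 6.55 in WT, and 0.995 FPKM in nrpd1-/-, against 5.45 in WT. None of the 4 MYB3R genes was at least 2-fold lower in mat nrpd1+/- (list median 0.32) and 1 was in nrpd1-/- (−0.69). The sign of the median turned with the WT column, with −0.77 in mat nrpd1+/- and 0.48 in nrpd1-/- against the other one. Against that column 1 was at least 2-fold lower in mat nrpd1+/- (7.67% of all genes) and 0 in nrpd1-/- (18.7%). MYB3R4 was below its own and the other WT column, at −0.84 and −2.09 in mat nrpd1+/- and −2.23 and −0.90 in nrpd1-/-. The other MYB3R genes lay above or below WT depending on the WT column. None of the 5 activators of the anaphase-promoting complex, which marks mitotic cyclins for destruction, was past 2-fold in either mutant against the WT of the same table. Against the other WT column 1 was at least 2-fold lower in mat nrpd1+/- and 0 in nrpd1-/-, beside 7.67% and 18.7% of all genes.

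**Figure D4:**
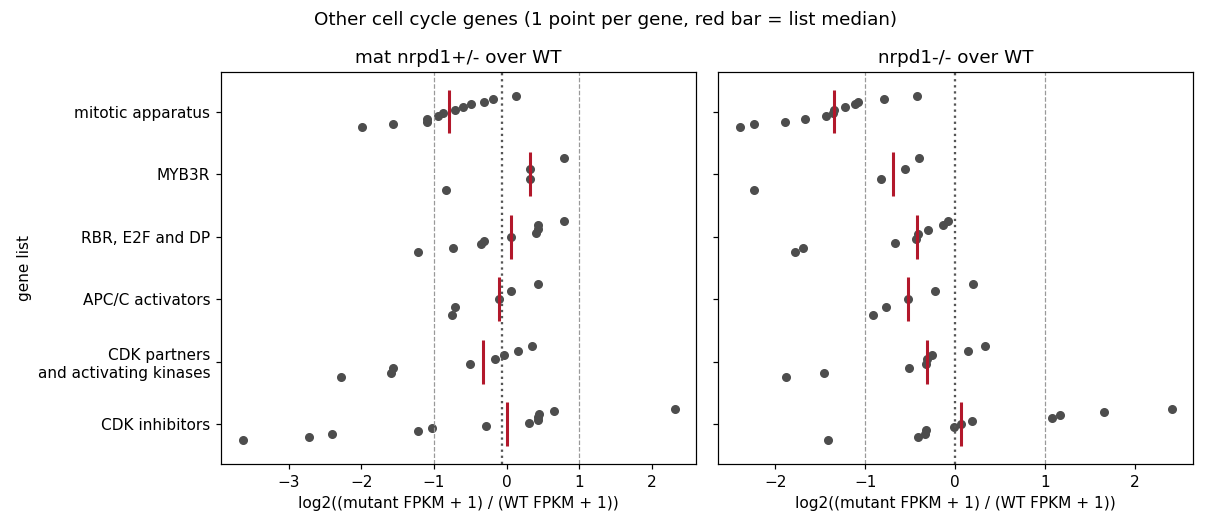
Log2 fold of mutant over WT on the FPKM + 1 scale for 6 lists of other cell cycle genes, with mat nrpd1+/- on the left and nrpd1-/- on the right. Each point is 1 gene with at least 1 FPKM in either genotype, red bars are list medians, the dotted line is the median of all genes compared and the dashed lines mark 2-fold. The mitotic apparatus has the lowest of the 6 medians in both panels, at −0.79 in mat nrpd1+/- and −1.35 in nrpd1-/-, and the CDK inhibitors spread to both sides.

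Markers of other seed tissues and stages moved as follows beside these results. The 10 seed coat markers summed to 197 FPKM in mat nrpd1+/-, against 163 FPKM in WT, and to 185 FPKM in nrpd1-/-, against 219 FPKM in WT, and 2 of them, TT12 and AHA10, were under 1 FPKM in every column. Of the 8 seed coat markers compared, 1 was at least 2-fold higher in mat nrpd1+/- (11.1% of all genes) and 2 in nrpd1-/- (9.48%). None was at least 2-fold lower (14.3% and 7.38%). Against the other WT column 2 and 1 were higher (12.4% and 16.4%). TTG2, which lies in a Col-0 region, was the seed coat marker at least 2-fold higher in both mutants, with 12.4 FPKM in mat nrpd1+/-, against 1.80 in WT, and 11.8 FPKM in nrpd1-/-, against 2.09 in WT. BAN, also in a Col-0 region, had 40.2 FPKM in mat nrpd1+/-, against 27.9 in WT, and 30.8 FPKM in nrpd1-/-, against 8.84 in WT. The 11 embryo markers summed to 70.7 FPKM in mat nrpd1+/-, against 102 FPKM in WT, and to 70.0 FPKM in nrpd1-/-, against 72.3 FPKM in WT. The embryo markers DRN, CUC2, WUS, PLT1 and PLT2 were under 1 FPKM in every column, and WOX2 and STM passed it only in the WT column of the mat nrpd1+/- table. WOX9 had 42.9 FPKM in mat nrpd1+/-, against 64.2 in WT, and 34.5 FPKM in nrpd1-/-, against 33.1 in WT. ATML1 had 13.4 FPKM in mat nrpd1+/-, against 2.59 in WT, and 21.9 FPKM in nrpd1-/-, against 11.2 in WT. The embryo list thus held silent and expressed genes, and its expressed genes did not share a direction. CUC1 had 12.8 FPKM in mat nrpd1+/-, against 31.4 in WT, and 12.3 FPKM in nrpd1-/-, against 27.0 in WT.

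Of the 9 endosperm markers, most are of an early stage. ZOU, a factor of the endosperm next to the embryo, had 68.2 FPKM in mat nrpd1+/-, against 56.8 in WT, and 43.2 FPKM in nrpd1-/-, against 67.4 in WT. AGL62, MEA, FWA, IKU2 and MINI3 were under 1 FPKM in every column. Of the 4 endosperm markers compared in mat nrpd1+/-, 1, PHE1, was at least 2-fold lower (14.3% of all genes). It had 0.108 FPKM, against 1.51 in WT. Of the 3 compared in nrpd1-/-, 1, FIS2, was (7.38%), with 0.224 FPKM, against 2.35 in WT. Both lie in Col-0 regions. None was at least 2-fold higher (11.1% and 9.48%). AGL80 was above WT in both mutants. Against the other WT column 1 was at least 2-fold lower in each mutant (7.67% and 18.7%). Seed maturation genes were higher in the mutants, with 7 of the 8 quantified at least 2-fold higher in mat nrpd1+/-, beside 11.1% of all genes, and 3 of the 5 quantified in nrpd1-/-, beside 9.48%. Only the 5 genes quantified in both tables could be set against the other WT column. Of these 5, 3 were at least 2-fold higher in mat nrpd1+/- (12.4% of all genes) and 5 in nrpd1-/- (16.4%). CRU2, a storage protein gene, had 1162 FPKM in mat nrpd1+/-, against 2.40 in WT, and 2043 FPKM in nrpd1-/-, against 21.1 in WT. SESA1, another storage protein gene, had 1509 FPKM in mat nrpd1+/-, against 258 in WT, and 2254 FPKM in nrpd1-/-, against 194 in WT. OLE2, an oil body protein gene, had 5260 FPKM in mat nrpd1+/-, against 851 in WT, and 8611 FPKM in nrpd1-/-, against 1416 in WT. The mutants with less B-type cyclin transcript thus also had more storage transcript, and the part of tissue makeup and seed stage in the cell cycle values was not tested. Chloroplast and mitochondrial genes took 13.1% of the summed FPKM in mat nrpd1+/-, against 4.13% in WT, and 7.40% in nrpd1-/-, against 28.1% in WT, and their part was not tested either.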

How the data were processed

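The authors trimmed the reads with Trim Galore, aligned them to TAIR10 with TopHat and deposited FPKM values made with Cuffdiff (2.2.1 in the submitters' processing notes), which pools the libraries of a genotype into 1 value and scales each table on its own. The depth behind a value is unknown, since values were not whole multiples of a read (the smallest above 0 was 4.67e-08 FPKM). Rows that Cuffdiff marked as not quantified, 16 in the mat nrpd1+/- table and 17 in the nrpd1-/- table, were left out. The authors' own comparison columns (log2 fold changes, test statistics, p-values and q-values) were not used. 1 value column, of pat nrpd1+/-, was not used, and that genotype was not analysed here.

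Folds were computed with Python 3.11.15, numpy 2.4.6 and pandas 2.3.3 from 5 value columns, with 1 FPKM added and genes under 1 FPKM in both genotypes left out, after the script had been tested on simulated data. The deposited Col-0 regions (20617793 bases in 12 regions) were used as given. The WT columns of the mat and pat tables were the same up to scale (SD of the log2 ratio 0.00608). All 31 genes could be named, and genes of other lists only where past 2-fold in the same direction in both tables, at most 3 per list. As exceptions, MYB3R4, BAN, ZOU, PHE1, FIS2, AGL80, WOX2, WOX9, STM, ATML1 and markers under 1 FPKM were named after their values were seen. Members and lists were chosen with earlier results of these data known. Of the 31 genes, 9 share their deposited position with another gene: CYCA2-3, CYCD1-1, CYCD3-1, CYCD3-2, CYCD6-1, CDKB1-1, CDKB1-2, CDKB2-1 and CDKB2-2. Alternatives changed the added FPKM, the filter, the scaling, the fold, the genes in Col-0 regions and the WT column. Some items are not reported here.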

Additional observations from a re-analysis of the deposited data

How the results depend on the processing

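No gene at least 2-fold from WT changed sign under any alternative tried, while the class D median in mat nrpd1+/- did under 1 of them. In mat nrpd1+/-, genes lower than WT numbered 19 at 1.5-fold, 5 at 3-fold and 7 with 5 FPKM added (8.59% of all genes). With equal summed FPKM over nuclear genes 6 were lower (7.66%). Genes higher numbered 3 at 1.5-fold, 0 at 3-fold, 2 with 0.1 FPKM added (14.6%) and 0 with 5 FPKM added (5.51%). They numbered 0 with at least 5 FPKM required (11.5%), 2 with equal summed nuclear FPKM (22.6%) and 0 without the genes in Col-0 regions. In nrpd1-/-, genes lower numbered 10 at 3-fold and 10 with 5 FPKM added (3.39% of all genes). Genes higher numbered 1 at 1.5-fold, 1 with 0.1 FPKM added (12.2%) and 1 against the other WT column (16.4%). Shares of all genes at 1.5-fold and 3-fold were not computed. Class B medians in mat nrpd1+/- were −1.40 with 0.1 FPKM added, −0.94 with 5 FPKM added, −0.71 with equal summed nuclear FPKM and −1.41 against the other WT column, and in nrpd1-/- −2.32 with 0.1 FPKM added, −1.19 with 5 FPKM added and −1.80 against the other WT column. Class A medians were −1.26 in mat nrpd1+/- against the other WT column and, in nrpd1-/-, −0.54 with 5 FPKM added and −0.20 against the other WT column. Class D medians were −0.57 with at least 5 FPKM required and 0.31 with equal summed nuclear FPKM in mat nrpd1+/-, and −0.21 without a filter and −0.57 with equal summed nuclear FPKM in nrpd1-/-. CDK medians were −0.21 with equal summed nuclear FPKM and −1.21 against the other WT column in mat nrpd1+/-, and −1.09 with 5 FPKM added in nrpd1-/-. The equal nuclear sum moved the median of all genes to 0.43 in mat nrpd1+/- and −0.13 in nrpd1-/-, and the split of all genes in mat nrpd1+/- to 7.66% lower and 22.6% higher, beside 14.3% and 11.1% as deposited, so that in mat nrpd1+/- class D with 0.31 lay below the all-gene median of 0.43. The cause of these shifts was not tested. The other 71 class and count values and 300 gene values stayed within a set limit, and 137 gene values moved by more than it. For a gene the limit was the centred log2 difference of the WT columns divided by the square root of 2. For a class it was the median of that value over its genes, and for counts it was 1.5 times. The limit is a wide margin for some of the values. No paired analysis was possible because the tables hold 1 pooled value per genotype, and for the same reason no replicate could be left out. Depth per value is unknown, so low values carry an error that cannot be stated.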
